A study of Mus musculus with 6 samples.

Results

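The SR and hnRNP splicing factor genes were taken as every row of the count table whose symbol is Srsf followed by a number or begins with Hnrnp, which gave 31 of 24062 genes: 11 SR genes and 20 hnRNP genes. RNA had been sequenced from mouse embryonic fibroblasts of the C57BL/6 strain, connective tissue cells grown from embryos. The 3 libraries of the p27 OE group came from cells given a lentivirus that overexpresses p27. This protein, the product of Cdkn1b, inhibits cyclin-dependent kinases. The other 3 libraries came from EV control cells, a label that is not spelled out. The titles of these 3 also carry a dataset tag in brackets that the p27 OE titles lack, and its meaning is not given. All were collected at day 4, when the p27 OE cells are labelled non-senescent, and the promoter of the vector is not given in the labels. The comparison addressed how these genes differed between p27 OE and EV control cells at day 4. Whether the libraries of a group came from separate cultures is not stated, so p-values measure the spread between these libraries.

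SR proteins carry RNA-recognition motifs and a tail rich in arginine and serine. They bind exonic enhancers and recruit the spliceosome, so that weak exons are included. The heterogeneous nuclear ribonucleoproteins (hnRNPs) coat nascent transcripts, and many of them silence exons, which sets them against SR proteins at shared targets. Many genes of both families limit their own protein by splicing in an exon that carries a stop codon (a poison exon), which sends the transcript to nonsense-mediated decay.

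Total counts per library ran from 34920728 to 52098220, and 14090 genes had enough counts to be tested, all 31 splicing factor genes among them. Levels are given as CPM, a gene's count relative to the library total after TMM scaling (edgeR's library scaling), in the order 1, 2, 3 of the library numbers. Cdkn1b stood at 52.2, 49.9 and 51.2 CPM in EV control and at 419, 978 and 460.0 CPM in p27 OE, so each p27 OE library lay above each EV control library. Its log2 fold change was 3.60 ± 0.35 without pairing (edgeR adjusted p 0.180) and 3.48 ± 0.42 with it (0.0873), so neither edgeR fit called the overexpressed gene itself. It was called by DESeq2 with and without pairing, by limma-voom with pairing, and by edgeR without p27 OE 2 (adjusted p 0.00105 with no pairing). A missing call therefore does not show that a gene was unchanged. EV control 1 and p27 OE 1 lay away from the remaining libraries on the first principal component, which held 58.9% of the variance, and in Ddx3y, a Y-linked gene, at 0.0556 and 0.0220 CPM against 54.3 to 65.5 CPM. The libraries numbered 1 thus came from a different cell source than those numbered 2 and 3. Whether numbers 2 and 3 were separate cultures is not stated.

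Of 12 fibroblast markers, which summed to between 59010 and 66356 CPM, Fbln2 rose (0.38 ± 0.06, edgeR adjusted p 0.00313 in the paired fit) and Pdgfra and Lum fell (-0.48 ± 0.06 and -0.23 ± 0.06, adjusted p 0.000575 and 0.0430). Of the 11 tested macrophage markers, 10 had a paired log2 fold change above 0, with a median of 0.46, and 7 were higher in each of the 3 pairs. Only Emr1 was called (0.77 ± 0.20, adjusted p 0.0326), and 6 had a higher level at an unadjusted p below 0.05. Over all tested genes the paired fit called 3.8% higher and 3.63% lower. At such an unadjusted p 11.9% were higher and 12% lower, and 21.8% were higher in each of the 3 pairs. The macrophage markers, of which Lyz2 made up the most, summed to 55.3, 68.2 and 69.5 CPM in EV control and 54.9, 97.4 and 69.7 CPM in p27 OE. Of 7 tested neural markers Tubb3 rose, from 30.3 to 51.5 CPM in EV control to 49.8 to 66.3 CPM in p27 OE (0.63 ± 0.08, adjusted p 0.00158), and the list summed to 86.9 to 126 CPM and 112 to 139.7 CPM. Of 5 tested epithelial markers Krt19 rose (0.41 ± 0.11, adjusted p 0.0448), and the list summed to 22.1 to 32.2 CPM and 20.8 to 45.7 CPM. Of 6 tested endothelial markers Emcn rose (0.93 ± 0.24, adjusted p 0.0354), and the list summed to 30.7 to 37.4 CPM and 27.4 to 33.1 CPM. Some listed markers were at or near 0. Elavl3 (neural) was at 0 in all 6 libraries, Cdh5 (endothelial) reached at most 0.132 CPM and Epcam (epithelial) at most 0.200 CPM. Others were expressed, such as Stmn2 (neural) at 40.3 to 54.99 CPM and Erg (endothelial) at 7.49 to 18.4 CPM. At an unadjusted p below 0.05 in the paired fit, 1 marker of each other cell type was lower. They were Cd68 (macrophage, -0.49), Sox2 (neural, -0.99), Krt18 (epithelial, -0.31) and Egfl7 (endothelial, -0.26), and none was called. At such a p 1 neural, 2 epithelial and 2 endothelial markers were higher. The part of these other cell type markers in the differences below was not tested.

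Of the 11 SR genes 8 had a paired log2 fold change above 0, and of the 20 hnRNP genes 9, against 6995 of all 14090 tested genes. When p27 OE and EV control libraries that share a number were paired, Srsf5, Srsf1 and Srsf6 rose 1.24-fold, 1.22-fold and 1.18-fold and no SR gene fell, and of the 20 hnRNP genes Hnrnpu rose 1.17-fold and none fell. Those 4 calls come from edgeR's quasi-likelihood test with the number as a block, at an adjusted p below 0.05 over all tested genes. The edgeR test without pairing called 0 of the 31. Over all tested genes the paired fit called 7.43%, with 3.8% higher and 3.63% lower, and the fit without pairing 0%. The median paired log2 fold change was 0.12 over the 11 SR genes, -0.003 over the 20 hnRNP genes and -0.001 over all 14090. Because the RNA came from bulk cultures, fewer cells of a kind and less RNA per cell cannot be told apart.

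The promoters of the called genes are shown because these 4 moved in one direction. Each line gives the 250 bases before the RefSeq transcript start (GRCm38.p6), 5′ to 3′ along the gene. Capitals mark matches on either strand to GGGCGG, the GC box, and to CCGGAAG, an ETS-type motif.
Srsf5 (chr12:80945249-80945498, forward strand): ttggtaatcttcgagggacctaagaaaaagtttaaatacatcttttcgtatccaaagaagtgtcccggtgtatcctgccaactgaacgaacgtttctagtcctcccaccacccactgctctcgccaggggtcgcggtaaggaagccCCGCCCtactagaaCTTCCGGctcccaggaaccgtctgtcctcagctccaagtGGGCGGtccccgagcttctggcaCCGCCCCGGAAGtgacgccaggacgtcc
Srsf1 (chr11:88047123-88047372, forward strand): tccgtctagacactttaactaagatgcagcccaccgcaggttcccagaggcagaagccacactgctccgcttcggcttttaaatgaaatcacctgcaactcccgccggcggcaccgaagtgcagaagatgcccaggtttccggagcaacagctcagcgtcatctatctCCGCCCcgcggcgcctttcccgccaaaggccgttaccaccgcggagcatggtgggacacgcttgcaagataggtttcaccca
Srsf6 (chr2:162931258-162931507, forward strand): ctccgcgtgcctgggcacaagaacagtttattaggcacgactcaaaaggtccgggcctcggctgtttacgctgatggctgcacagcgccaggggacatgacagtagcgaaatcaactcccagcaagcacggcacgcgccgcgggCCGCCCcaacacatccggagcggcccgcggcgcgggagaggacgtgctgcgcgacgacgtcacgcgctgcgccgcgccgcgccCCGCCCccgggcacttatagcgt
Hnrnpu (chr1:178337816-178338065, reverse strand): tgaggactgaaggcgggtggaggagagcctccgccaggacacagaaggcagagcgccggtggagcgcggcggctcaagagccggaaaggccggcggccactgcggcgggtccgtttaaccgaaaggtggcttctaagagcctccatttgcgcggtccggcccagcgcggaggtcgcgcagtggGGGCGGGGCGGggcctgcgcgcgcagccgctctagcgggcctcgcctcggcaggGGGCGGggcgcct

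A GC box lay before the start of all 4 genes, while CCGGAAG was seen among them only before Srsf5, where 1 of its copies overlaps a GC box. Promoter windows of 300 bases (250 before and 50 after the start) were available for 29 of the 31 members, some with several starts, in 41 windows. GGGCGG was in 82.9% of the member windows and in 35.7% of the 32851 windows of all genes. CCGGAAG was in 24.4% against 8.86%, CCAAT in 51.2% against 37.4%, TATAAA in 9.76% against 13.6% and the E-box CACGTG in 12.2% against 7.15%. Windows of a gene with several starts can overlap, so the same site can be counted more than once. The windows with CCGGAAG belonged to 6 members, those with GGGCGG to 24 and those with CCAAT to 17. Member windows were also richer in CpG dinucleotides, with a median of 31 against 7, and the counts of GC-rich motifs were not adjusted for this. The matches describe the letters of these windows and not binding.

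Srsf5, an SR protein whose gene also responds to growth signals, was at 228, 223 and 212 CPM in EV control and at 279, 255 and 287 CPM in p27 OE. It was the one SR gene with every p27 OE library above every EV control library, a pattern shown by 6.61% of all tested genes. Its paired log2 fold change was 0.31 ± 0.06 (SE, n = 3 pairs, edgeR adjusted p 0.00805). It was also the one member with an unadjusted p below 0.05 without pairing, at 0.00497 (edgeR adjusted p 0.651), against 3.2% of all tested genes with such a p and a higher level and 4.02% with a lower one. DESeq2 without pairing gave Srsf5 an adjusted p of 0.0469 and called no other member, and limma-voom without pairing called none.

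Srsf1, the founding SR protein, known as a proto-oncogene and as a factor for constitutive and alternative splicing, was at 138, 103 and 99.0 CPM in EV control and at 158, 123 and 133 CPM in p27 OE. The groups overlapped, since EV control 1 lay above p27 OE 2 and 3, while each of the 3 pairs moved up, by 0.19, 0.26 and 0.42 on the log2 scale. The paired fit gave 0.29 ± 0.06 (edgeR adjusted p 0.0101). Srsf6, which regulates among others the splicing of tau, was at 167, 119.9 and 109 CPM against 192, 127 and 148 CPM. Its groups overlapped as well, and the rise was 0.20, 0.09 and 0.44 within pairs (0.24 ± 0.07, edgeR adjusted p 0.0447). The call of Srsf6 was lost with upper-quartile scaling (adjusted p 0.0585), with limma-voom (0.0649) and without the libraries numbered 1 (0.106).

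Pair 3 carried the largest rise in all 3 of these genes. Without the libraries numbered 3, none of the 4 calls remained: the edgeR adjusted p was 0.145 for Srsf5, 0.171 for Srsf1, 0.454 for Srsf6 and 0.229 for Hnrnpu. The log2 fold changes were then 0.24, 0.23, 0.14 and 0.21, with 2 pairs left.

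**Figure D1:**
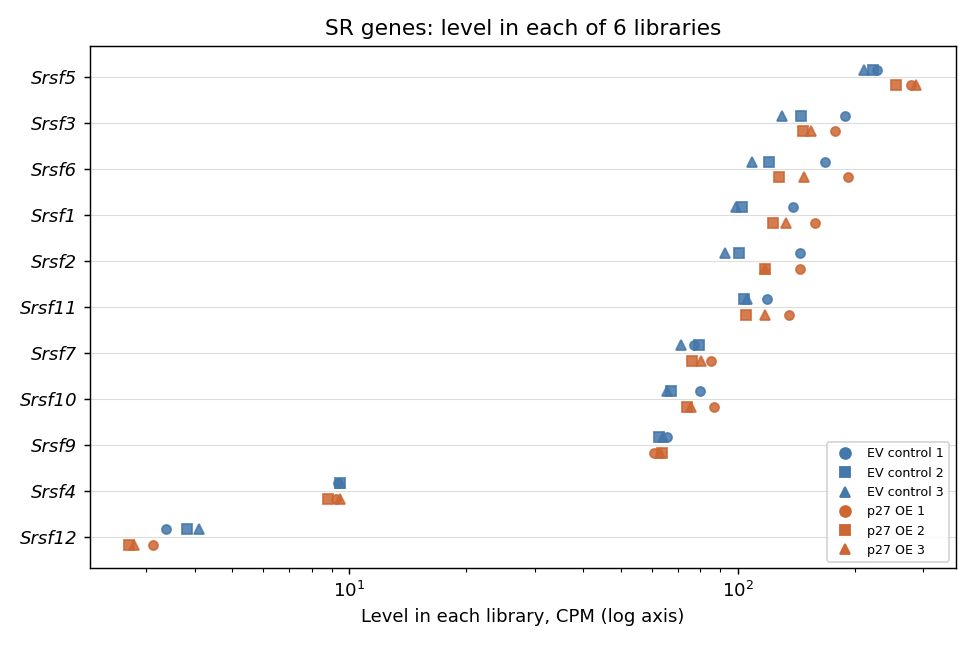
Level of the 11 SR genes in each of the 6 libraries, in CPM on a log axis. Blue symbols are EV control and orange symbols p27 OE, with circles, squares and triangles for the numbers 1, 2 and 3. Srsf5 separates the groups upward and Srsf12 downward, and in the other 9 genes the groups overlap.

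The other 8 SR genes were not called, with paired log2 fold changes from -0.38 (Srsf12) to 0.18 (Srsf2) and SE from 0.06 to 0.17. Srsf2, known as SC35 and as a marker of nuclear speckles, was at 145, 101 and 92.7 CPM in EV control and at 144, 117 and 117 CPM in p27 OE. Pair 1 did not differ in it while pairs 2 and 3 were higher, by 0.22 and 0.34, and the edgeR adjusted p was 0.105, or 0.00321 without the libraries numbered 1. Srsf10, which acts as a splicing repressor when dephosphorylated in heat shock, was at 80.0, 67.1 and 65.6 CPM against 86.7, 73.8 and 75.7 CPM (0.15 ± 0.06, edgeR adjusted p 0.112). It was higher in each pair although the groups overlapped.

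Srsf3, the smallest SR protein, differed by -0.08, 0.02 and 0.25 in pairs 1, 2 and 3 (0.06 ± 0.06). Srsf7, a zinc-knuckle SR protein that shuttles out of the nucleus, differed by 0.15, -0.07 and 0.17. Both thus moved in different directions in different pairs. Srsf11 differed by 0.12 ± 0.06 and Srsf9 by -0.04 ± 0.06. Srsf4 was at 9.33, 9.47 and 9.45 CPM against 9.25, 8.82 and 9.46 CPM (-0.04 ± 0.11).

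Srsf12 was the SR gene with the lowest level, at 3.37, 3.81 and 4.10 CPM in EV control and 3.12, 2.71 and 2.78 CPM in p27 OE. All 3 p27 OE libraries lay below all 3 EV control libraries, as in 8.28% of all tested genes, but the difference of -0.38 ± 0.17 was not called (edgeR adjusted p 0.196). Of the SR genes, 5 were higher and 1 lower in each of the 3 pairs, against 21.8% and 23.7% of all tested genes. At an unadjusted p below 0.05 the paired edgeR fit had 5 SR genes higher and 1 lower, against 11.9% and 12%. The summed level of the 11 SR genes was 1220, 1017 and 962 CPM in EV control and 1332, 1099 and 1188 CPM in p27 OE. The sum was higher in p27 OE within each number, yet EV control 1 lay above p27 OE 2 and 3.

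**Figure D2:**
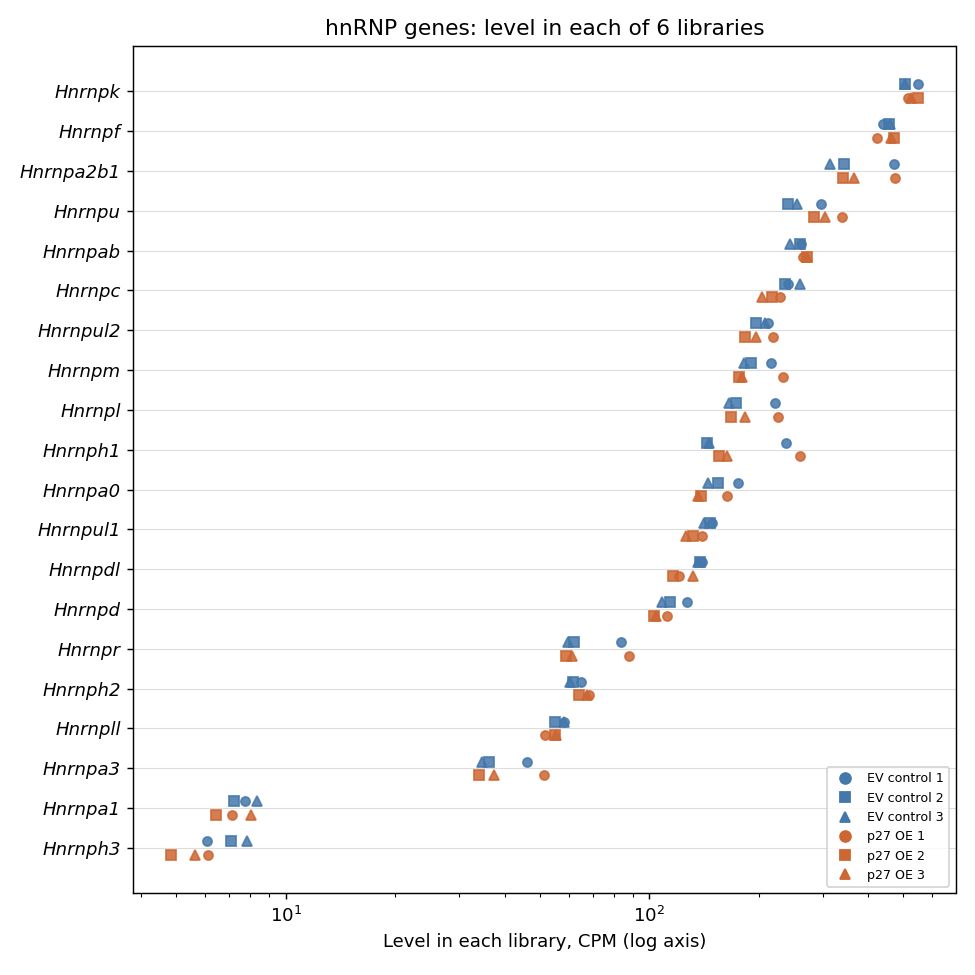
Level of the 20 hnRNP genes in each of the 6 libraries, in CPM on a log axis, with symbols and colours by number and group. In Hnrnpab the groups separate upward and in Hnrnpc, Hnrnpdl and Hnrnpul1 downward, and in Hnrnph1, Hnrnpr and Hnrnpa3 the circles of the libraries numbered 1 lie to the right of the rest.

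Hnrnpu, the scaffold attachment factor that binds both chromatin and RNA, was at 298, 241 and 254 CPM in EV control and at 339, 284 and 304 CPM in p27 OE. It rose by 0.19, 0.24 and 0.26 on the log2 scale within pairs, so that the pairs differed little among themselves. The paired fit gave 0.23 ± 0.05 (edgeR adjusted p 0.0212). The groups overlapped because EV control 1 lay above p27 OE 2.

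Of the other 19 hnRNP genes none was called by edgeR with pairing, with log2 fold changes from -0.33 (Hnrnph3) to 0.14 (Hnrnph1). At an unadjusted p below 0.05 the paired fit had 2 hnRNP genes higher and 6 lower, against 11.9% and 12% of all tested genes. DESeq2 and limma-voom with pairing called 0 hnRNP genes lower, and without the libraries numbered 1 edgeR called 2 lower, Hnrnpc and Hnrnph3.

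The lower end held Hnrnpc, Hnrnpdl and Hnrnpul1, in each of which all 3 p27 OE libraries lay below all 3 EV control libraries. These 3 of 20 hnRNP genes stand beside 8.28% of all tested genes with that pattern. Hnrnpc, which binds uridine tracts, was at 242, 236 and 259.8 CPM against 229, 217 and 204 CPM. Its difference was -0.18 ± 0.06 (edgeR adjusted p 0.0881), and 0.0148 without the libraries numbered 1. Hnrnpdl, the paralog of the AU-rich element binder Hnrnpd, was at 139.6, 138 and 136 CPM against 121, 116 and 132 CPM (-0.17 ± 0.06, edgeR adjusted p 0.0875). Hnrnpul1 was at 149, 147 and 142 CPM against 139.9, 132 and 126 CPM (-0.14 ± 0.05, edgeR adjusted p 0.130).

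Hnrnph3 was at 6.09, 7.09 and 7.81 CPM against 6.11, 4.83 and 5.62 CPM (-0.33 ± 0.14), with no difference in pair 1 and lower levels in pairs 2 and 3. Hnrnpd was at 127, 114 and 108 CPM against 112, 103 and 104 CPM (-0.13 ± 0.05), and the single-exon gene Hnrnpa0 at 176, 154 and 145 CPM against 163, 139 and 136 CPM (-0.12 ± 0.05). Both were lower in each pair and had overlapping groups. In all, 7 of the 20 hnRNP genes were lower and 4 higher in each of the 3 pairs, against 23.7% and 21.8% of all tested genes.

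At the other end Hnrnph1, which binds G-rich tracts, was at 237, 144 and 146 CPM in EV control and at 259.9, 156 and 164 CPM in p27 OE. It was higher in each pair (0.14 ± 0.05, edgeR adjusted p 0.128), but the gap between number 1 and the other numbers was far larger. Its X-linked paralog Hnrnph2 differed by 0.10 ± 0.06. Hnrnpab was at 261, 259 and 244 CPM against 265, 271 and 271 CPM. Its groups separated upward, as in 6.61% of all tested genes, and its difference was 0.08 ± 0.05 (edgeR adjusted p 0.392).

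Hnrnpa2b1, which packages RNA and sorts microRNAs, was at 471, 342 and 314 CPM against 475, 341 and 366 CPM (0.08 ± 0.06). Only pair 3 differed in it. Hnrnpk, the poly(C)-binding hnRNP that also takes part in the p53 response, was at 549, 504 and 503 CPM against 514, 548 and 524 CPM (0.03 ± 0.06). Hnrnpf was at 440.0, 458 and 459.7 CPM against 423, 472 and 461 CPM (-0.003 ± 0.05). These abundant genes had overlapping groups and pairs that moved in different directions.

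The remaining 7 had log2 fold changes between -0.11 and 0.06. Hnrnpa3 differed by 0.06 ± 0.07, Hnrnpl, which binds CA repeats, by 0.04 ± 0.06, Hnrnpr by 0.01 ± 0.06 and Hnrnpm by -0.003 ± 0.06. Hnrnpul2 differed by -0.05 ± 0.05, Hnrnpll, the regulator of Ptprc (CD45) splicing in lymphocytes, by -0.09 ± 0.06, and Hnrnpa1 by -0.11 ± 0.12. The summed level of the 20 hnRNP genes was 4006, 3529 and 3497 CPM in EV control and 3993, 3530 and 3589 CPM in p27 OE, with number 1 highest in both groups.

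**Figure D3:**
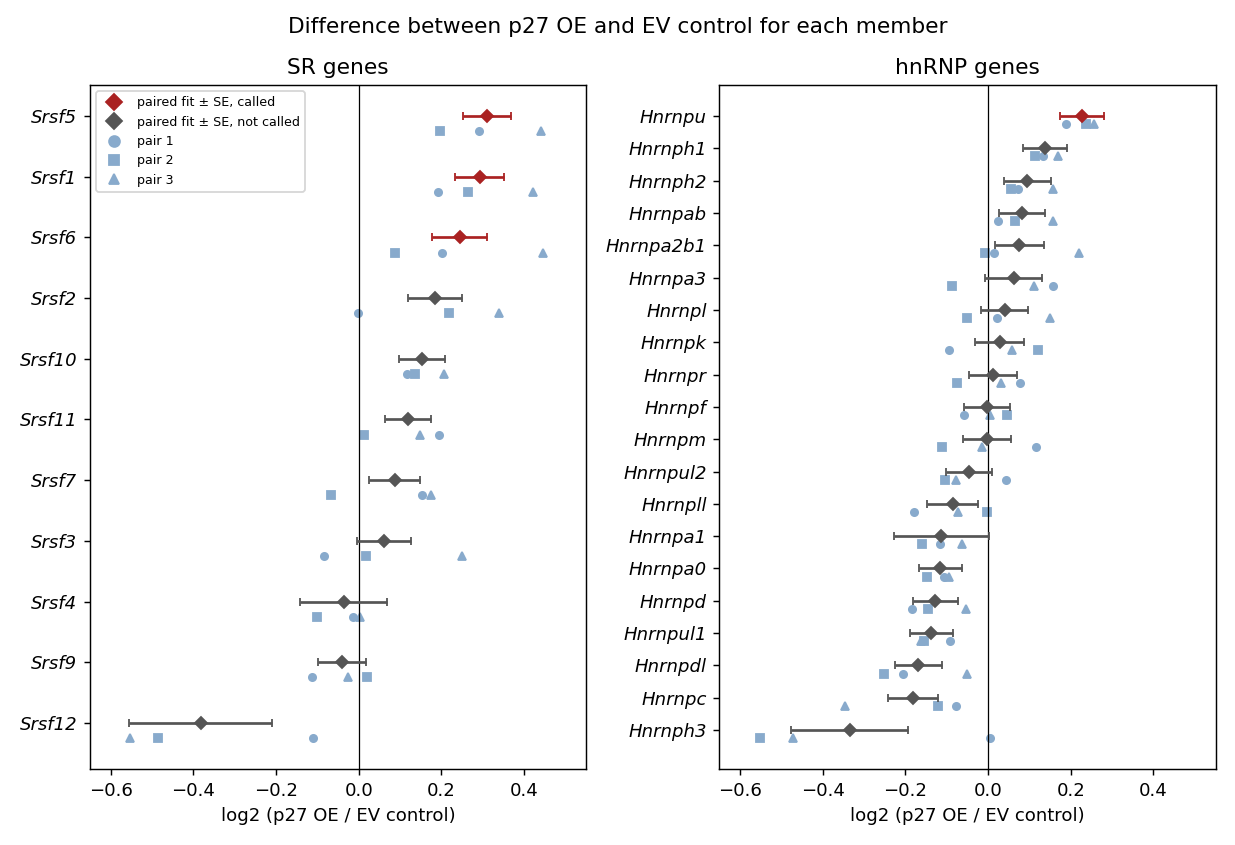
Difference between p27 OE and EV control for each member, as log2 ratio. Diamonds are the paired edgeR fit with its SE, red where called, and the light symbols are the ratios of pairs 1, 2 and 3. Srsf5, Srsf1, Srsf6 and Hnrnpu are the called genes, and the hnRNP genes lie on both sides of 0.

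Many members differed between library numbers as well as between groups. Both libraries numbered 1 lay above the other 4 in 6 of 11 SR genes and 8 of 20 hnRNP genes, against 24.5% of all tested genes. They lay below in none of the SR genes and in 1 hnRNP gene, Hnrnpf, against 24.5%. Hnrnph1 was higher in number 1 than in numbers 2 and 3 by 0.71 on the log2 scale in EV control and by 0.70 in p27 OE. The same ratios were 0.55 and 0.49 for Srsf6, 0.52 and 0.43 for Hnrnpa2b1, 0.45 and 0.55 for Hnrnpr and 0.58 and 0.30 for Srsf2. The paired rise of Srsf6, 0.24, was thus smaller than the gap between its libraries of different number. In Srsf5, with ratios of 0.07 and 0.04, the numbers differed less than the groups. This comparison is a description of 2 libraries against 4 and was not tested. The libraries numbered 1 are also those with almost no Ddx3y, and the part of that difference in these gaps was not tested.

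**Figure D4:**
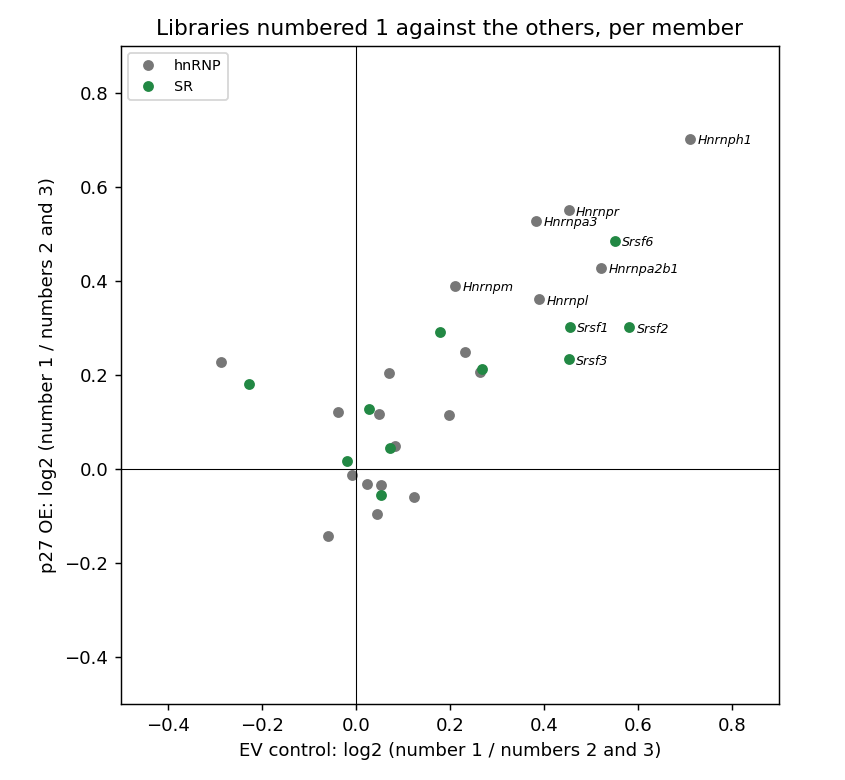
Log2 ratio of the library numbered 1 to the mean of numbers 2 and 3, in EV control (horizontal) and in p27 OE (vertical), 1 point per member. Hnrnph1, at 0.71 and 0.70, is farthest from 0, and most SR genes (green) lie above 0 on both axes.

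Levels of different members were compared per kilobase of the median GENCODE M21 coding transcript (CPM per kb, EV control, mean ± SD, n = 3). The lengths come from the annotation and were not measured in these cells, and the order depends on them. Each SD covers only the spread in CPM between libraries. Hnrnpa2b1 led at 228 ± 50.7 CPM per kb, followed by Hnrnpf at 199 ± 4.78 and Hnrnpk at 195 ± 9.77, and these 3 did not differ beyond their spread. Srsf5 was the highest SR gene at 147 ± 5.67, ahead of Hnrnpab at 126 ± 4.75. Hnrnpdl was the median of the order, at 50.2 ± 0.605. At the bottom stood Hnrnpa1 at 4.47 ± 0.335, Srsf4 at 4.17 ± 0.0317, Hnrnph3 at 3.23 ± 0.397 and Srsf12 at 1.28 ± 0.126 CPM per kb, of which Hnrnpa1 and Srsf4 did not differ beyond their spread.

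Some of these levels are uncertain because the gene shares sequence with others. Of the 50-base stretches of the longest coding transcript, 46.4% in Hnrnpa1 also occur in transcripts of other annotated genes, 18 of them pseudogenes. The pseudogene sharing most with it, Gm10052, is a row of the table with 0 counts in all 6 libraries. The share was 67.3% in Hnrnpf, 37.8% in Hnrnpk, 35.2% in Srsf2, 31.5% in Srsf3, 29.0% in Hnrnpab, 28.8% in Hnrnpm, 28.2% in Hnrnpa3 and 27.8% in Srsf5. In Hnrnpm all of it was with March2, which overlaps its exons over 1169 bases on the same strand. In Srsf4 it was 65.4%, with the antisense gene Gm12992, which has a row of its own with 37 to 65 counts per library. The library kit does not mark strand. Hnrnpab overlaps the antisense gene Phykpl over 29.1% of its exon bases and Srsf2 overlaps Mettl23 over 23.0%, so reads there cannot be assigned by strand. Srsf6, Hnrnpu, Srsf9, Srsf11, Srsf12, Hnrnpa0 and Hnrnpll shared none and Srsf1 shared 0.979%.

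Gene counts do not separate coding transcripts from those with a poison exon. In GENCODE M21, 9 of 11 SR genes and 10 of 20 hnRNP genes have at least 1 transcript annotated as a target of nonsense-mediated decay, 61.3% of the 31 together. The share was 27.9% of the 12888 tested protein-coding genes found there. All 4 called genes are among them, with 1 such transcript in Srsf5 and Srsf6, 2 in Srsf1 and 3 in Hnrnpu. The 4 lie on chromosome 12 from 80945504 to 80950507 (Srsf5), chromosome 11 from 88047373 to 88053755 (Srsf1), chromosome 2 from 162931528 to 162937121 (Srsf6), all forward, and chromosome 1 from 178321108 to 178337797 on the reverse strand (Hnrnpu), in GRCm38.

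Partners and regulators of these factors were read from the same paired fit, which called 3.8% of all tested genes higher and 3.63% lower. At an unadjusted p below 0.05 these shares were 11.9% and 12%. Groups did not overlap in 6.61% (higher) and 8.28% (lower) of all tested genes. The counts in each list below are to be read beside these shares. Of 18 tested genes for SR protein kinases, a phosphatase and nuclear import, 1 rose and none fell, with a median log2 fold change of 0.07. The member that rose was Ppp1r10, a targeting subunit of protein phosphatase 1, at 38.5, 31.6 and 32.2 CPM against 42.7, 37.3 and 44.1 CPM (0.28 ± 0.07, edgeR adjusted p 0.0336). Its p was 0.354 without the libraries numbered 3 and 0.0532 by limma-voom, and the groups overlapped. Clk2, a kinase that phosphorylates SR proteins in speckles, and Tnpo1, the import receptor of Hnrnpa1, differed by 0.14 ± 0.06 and 0.14 ± 0.05. Neither was called, although in both all p27 OE libraries lay above all EV control libraries.

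Of 29 SR-related genes, 25 had a paired log2 fold change above 0, with a median of 0.10, against 6995 of 14090 over all tested genes. At an unadjusted p below 0.05, 10 were higher and 1 lower, against 11.9% and 12% of all tested genes. In each of the 3 pairs 16 were higher and 1 lower, against 21.8% and 23.7%. Only 1 was called higher, Son, and 1 lower, Rsrc1. Son, the large scaffold of nuclear speckles, was at 234, 245 and 251 CPM in EV control and 303, 262 and 288 CPM in p27 OE (0.22 ± 0.06, edgeR adjusted p 0.0416). Rsrc1 was at 46.0, 45.4 and 44.5 CPM against 38.2, 40.1 and 38.1 CPM (-0.22 ± 0.06, edgeR adjusted p 0.0467). In both the groups did not overlap. Son was not called with upper-quartile scaling (adjusted p 0.0520), by limma-voom (0.0596), or without the libraries numbered 1 (0.0843) or 3 (0.205). Rsrc1 was not called with RLE scaling (0.0516), by DESeq2 (0.116) or limma-voom (0.0569), or without any one number (0.0724 to 0.253). Arglu1 differed by 0.25 ± 0.08 and was not called (adjusted p 0.0609), but it was called with no filter (0.0295) and without the libraries numbered 2 (0.37, adjusted p 0.00158).

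Among 20 tested hnRNP proteins whose genes carry other symbols, Pcbp2 and Raly fell and none rose. Pcbp2, a poly(C)-binding protein that stabilizes messages, was at 283, 329 and 322 CPM against 244, 271 and 275 CPM (-0.24 ± 0.05, edgeR adjusted p 0.0163). Raly, a close relative of Hnrnpc, was at 237, 259 and 265 CPM against 206, 227 and 229 CPM (-0.20 ± 0.05, edgeR adjusted p 0.0354). In both genes the groups did not overlap and the 3 pairs fell by nearly the same amount, 0.22 to 0.28 for Pcbp2 and 0.19 to 0.21 for Raly. Without the libraries numbered 2 or 3 the adjusted p was 0.0512 and 0.138 for Pcbp2 and 0.0859 and 0.266 for Raly. Msi2 differed by 0.18 ± 0.06 and was not called.

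Of 29 other tested splicing regulators, Mbnl2, a muscleblind protein, rose and Khdrbs1, known as Sam68, fell. Mbnl2 was at 174, 234 and 248 CPM against 195, 288 and 285 CPM (0.22 ± 0.05, edgeR adjusted p 0.0257), with number 1 low in both groups. Khdrbs1 was at 165, 142 and 139 CPM against 128, 121 and 131 CPM (-0.22 ± 0.06, edgeR adjusted p 0.0390). DESeq2 and limma-voom with pairing did not call Khdrbs1 (adjusted p 0.0575 and 0.0600), nor was it called without any one number (0.0603 to 0.0752), and Mbnl2 was not called without the libraries numbered 2 or 3 (0.114 and 0.168). Tia1 differed by 0.21 ± 0.06 and was not called, except without the libraries numbered 2 (adjusted p 0.0428).

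Of 54 tested core spliceosome genes, edgeR with pairing called 0, with 4 higher and 6 lower at an unadjusted p below 0.05 and a median log2 fold change of -0.03. The 3 with the smallest p were the branch point protein gene Sf1 (0.18 ± 0.05, edgeR adjusted p 0.0560), Sf3b3 (0.18 ± 0.05) and Lsm4 (-0.20 ± 0.06). Sf1 was called with RLE scaling (adjusted p 0.0494), with no filter (0.0451), with a filter of 1 CPM in 3 libraries (0.0495) and without the libraries numbered 1 (0.0161), and Sf3b3 without those numbered 1 (0.0376). Sf1 stood at 137, 124 and 128 CPM against 150, 139 and 152 CPM, with groups that did not overlap. No other of the 54 genes separated upward, while 8 separated downward, Lsm4 among them. These counts stand beside 6.61% and 8.28% of all tested genes.

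Of 9 tested arginine methyltransferase genes and partners, whose enzymes modify hnRNPs and Sm proteins, edgeR called 0, with 0 higher and 1 lower at an unadjusted p below 0.05. Prmt7 (-0.19 ± 0.07), Prmt3 (0.16 ± 0.08) and Carm1 (-0.11 ± 0.05) had the smallest p, and Prmt7 was called without the libraries numbered 1 (adjusted p 0.0474). Of 15 nonsense-mediated decay and exon junction genes, 1 rose, Smg1, the kinase that phosphorylates Upf1. It was at 83.2, 79.7 and 93.4 CPM against 118, 92.0 and 102 CPM (0.28 ± 0.07, edgeR adjusted p 0.0335), with the rise largest in pair 1, and the groups overlapped. Its adjusted p was 0.0672 without the libraries numbered 1 and 0.0504 by limma-voom. Upf2 (0.19 ± 0.07) was not called.

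**Figure D5:**
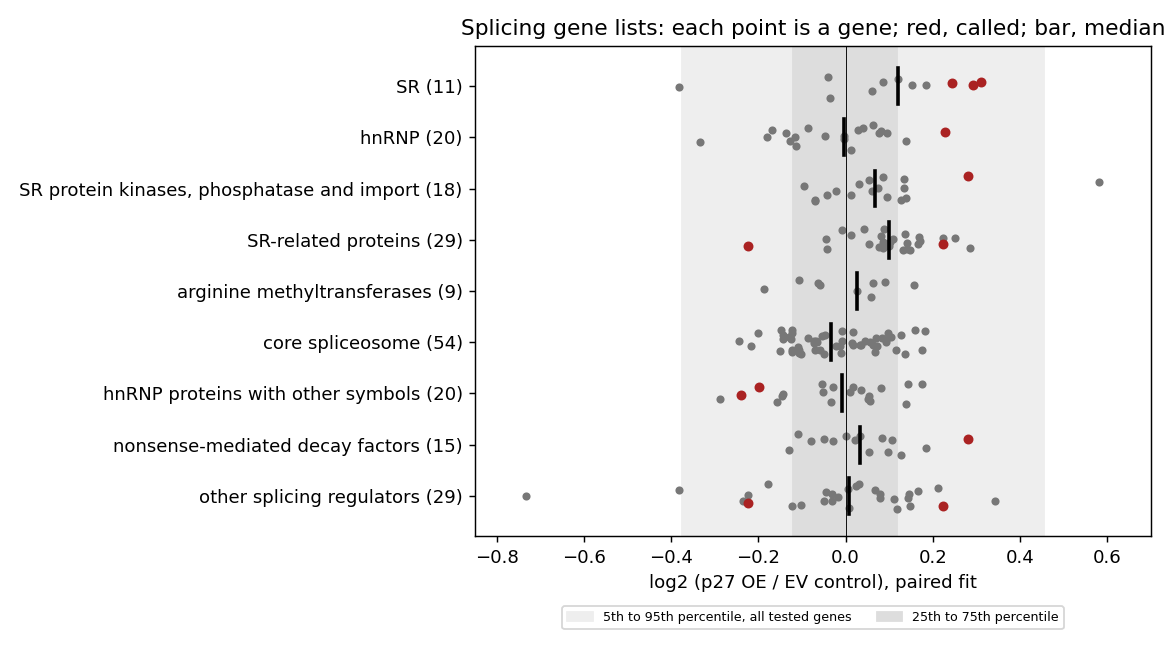
Paired log2 fold change of each tested gene, by family and list, with the number of genes in brackets. Red points are called genes, bars are medians and the shading gives percentiles over all tested genes. The median is 0.12 in SR genes and 0.10 in SR-related genes, and -0.003 in hnRNP genes.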

How the data were processed

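Each library's column in the table that the authors deposited holds raw counts by gene symbol. The submitters' processing notes name TopHat2 2.0.14, Bowtie2 2.2.6, Subread and featureCounts 1.4.6, and build mm10. Not given in the sources used here are the annotation, the strand setting and the handling of reads matching more than 1 place. Libraries were grouped by title.

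Genes were kept with edgeR's filterByExpr (minimum count 10, minimum total 15) and scaled by TMM. Tests were edgeR 4.0.16 quasi-likelihood F tests (robust, two-sided) in R 4.3.3, and p-values were adjusted by Benjamini-Hochberg across every tested gene (threshold 0.05). Each SE is the log2 fold change divided by the root of its F statistic. The first fit had no term for the number. The titles give both groups the numbers 1 to 3, and deviations from the group means (log2 CPM, prior count 2) had correlations of 0.77, 0.42 and 0.54 for numbers 1, 2 and 3. Across numbers 2 and 3 the correlations were 0.39 and 0.41, so the check is weak for numbers 2 and 3. The paired values are therefore given with the unpaired ones.

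Exact permutation of 3 against 3 libraries cannot give a p under 0.1 and was not used. Alternatives were RLE and upper-quartile scaling, other filters, DESeq2 1.42.0, limma-voom (limma 3.58.1) and left-out libraries. Named are Cdkn1b, all members, and from each splicing list the 3 genes with the smallest paired p and all called ones, except 1 gene that is not reported here. Genes named only for markers, shared sequence or overlap were chosen after their values were seen. Members and lists were chosen with earlier results of these data known. Transcript types, lengths and coordinates are from GENCODE M21 (GRCm38). In it all 31 members were found. Promoters are from RefSeq GRCm38.p6. A 50-base stretch counted as shared when it occurred in either orientation in a transcript of another gene.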

Additional observations from a re-analysis of the deposited data

How the results depend on the processing

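The replicate block decided the calls. Without pairing, edgeR called 0 genes in each direction, and with the block 535 higher and 512 lower, among them 3 SR genes and 1 hnRNP gene, all higher. Without pairing, DESeq2 called 53 genes higher and 36 lower, 1 of them an SR gene, and edgeR with no filter called 1 higher. Leaving out 1 library without pairing gave 0 to 1 genes higher, 0 lower and 0 members.

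In the paired fit, dropping each number in turn gave 224 to 893 genes higher and 106 to 848 lower, 0 to 3 SR genes higher, 0 to 1 hnRNP genes higher and 0 to 2 hnRNP genes lower. The low ends of the higher counts came without number 3 and the high ends over all genes without number 1. These fits rest on 2 pairs. With no filter and the block 1 hnRNP gene, Hnrnpc, was called lower (adjusted p 0.0491). Upper-quartile scaling with the block gave 483 higher and 736 lower, so 39.6% of calls were higher against 51.1% with TMM, and the median over SR genes was 0.10. In the paired fit 25 of 31 members kept their direction under every alternative run, and the 6 that did not (Hnrnpf, Hnrnpk, Hnrnpl, Hnrnpm, Hnrnpr and Srsf3) were called under none. The other causes of these shifts were not tested. The members with the fewest counts, Srsf12, Srsf4, Hnrnph3 and Hnrnpa1, had the largest SE, 0.11 to 0.17 on the log2 scale.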
